A study of Mus musculus with 23 samples.

Results

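The genes examined, Cux1, Nol4l, Steap3, Rin2, Tacc1, Thap4, Mfge8, Nfyc, Pank3 and Lin9, were chosen because several NR5A2-bound regions near each of them had lower chromatin accessibility in 8-cell mouse embryos without Nr5a2. A region belonged to a gene when that gene had the nearest protein-coding span in the RefSeq gene table and lay within 50 kb of the region's midpoint. By this rule 58 of the 16958 listed regions belonged to the 10 genes. The authors class 44 of the 58 as losing accessibility, and the other 14 (11 unchanged and 3 gaining) are called kept here. Because the genes were chosen by change of accessibility, the changes themselves, and the calls made on them from read counts, are given as a description that supports nothing about the genes. NR5A2 binding signal, summit position and promoter sequence were not used in the choice, and place along the gene was used only through the limit of 50 kb. Binding signal is still linked to the choice through control reads, as described below.

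The accessibility values come from ATAC-seq, in which a transposase inserts adapters into open DNA, with a single RPKM value for each group at each region, merged over its embryos. The maternal-zygotic (mz) series holds 13 knockout (mz_NrKO) and 8 heterozygous (mz_NrHet) embryos, each made into its own library and all taken directly at the 8-cell stage, with 1 date in the labels. The inducible series holds 1 pool of tamoxifen-treated embryos (i_NrKO) and 1 untreated pool (i_Nrpp). Embryos of both pools were isolated early in the 2-cell stage, at 30 h post hCG (the hormone that sets off ovulation), and grown in culture for 45 h up to the 8-cell stage, with 750 nM 4-hydroxytamoxifen for the first 24 h in the treated pool. The mz_NrHet embryos carry 1 mutant allele and are not wild type, and whether they share a maternal deletion with the knockouts was not stated. Further, the samples hold no pool that got the drug but kept Nr5a2, so drug and deletion cannot be told apart. The pools carry another date and were cultured, so the series differ in more than the way Nr5a2 was deleted. Which recombinase made either deletion, and in which cells, was not given in the sources used here. Reads over all listed regions numbered 109296 in mz_NrKO and 99826 in mz_NrHet embryos, and 190091 in the treated and 285671 in the untreated pool. Relative to the mz_NrHet column, the depth implied by the RPKM of a single read was 1.64 in mz_NrKO embryos, 3.45 in the treated and 3.60 in the untreated pool. Read counts of different columns are therefore not on the same scale. A member region had a median of 4 reads in mz_NrKO and 9 in mz_NrHet embryos, and of 8 in the treated and 20 in the untreated pool. The deposited ATAC-seq values are not divided by region length, so a level is set against the same region in another column. The values are merged over embryos, so variation from embryo to embryo could not be measured, and intervals cover counting error only. A lower value in a pool can mean fewer cells with an open region or less opening per cell, and these cannot be told apart.

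NR5A2 is an orphan nuclear receptor. It binds DNA as a monomer at an extended half-site built around the bases AAGGTCA or AAGGCCA, and is active in early embryos, in liver and in steroid-producing tissue. Regions bound by a transcription factor often lie in introns or between genes, where they may act as enhancers, and a single gene can have many. An open region may stay open without the factor when others bind there. Several of the 10 genes encode regulators of transcription themselves. CUX1 is a homeodomain protein with CUT repeats, NFYC is a subunit of the CCAAT-binding factor NF-Y, and LIN9 belongs to the MuvB core of cell-cycle complexes. THAP4 has a THAP zinc finger and is placed beside them for that domain alone. The products of the others act elsewhere. RIN2 activates the endosomal GTPase Rab5, TACC1 is a coiled-coil protein of centrosomes and microtubules, STEAP3 is an iron reductase, PANK3 starts coenzyme A synthesis, and MFGE8 is a secreted bridging protein in the uptake of dying cells. NOL4L is related to the nucleolar protein NOL4.

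No sequence under the bound regions could be read, since only promoter windows of RefSeq (GRCm38.p6, the assembly of mm10) were at hand. Each window runs from 250 bases before to 50 bases after a listed start site. They covered 8 of the 10 genes in 15 windows, with none for Tacc1 or Lin9. None of the 58 regions overlapped any promoter window in the table. Listed start sites do not mark the 5′ end of every span, so a region near that end can lie outside all windows, as at Nfyc. The NR5A2 half-site (AAGGTCA or AAGGCCA on either strand, 7 bases each) was present in 1 of the 15 windows, against 10.6% of all 32851 windows. That window, at a start site inside Steap3, is shown with the windows of Nol4l and Steap3 that lie closest to a bound region, at 0.659 kb and 0.771 kb from a losing region. Capitals mark the half-site, which starts 217 bases before the start site, and the windows without capitals hold none.
Nol4l, chr2:153529922-153530221, minus strand: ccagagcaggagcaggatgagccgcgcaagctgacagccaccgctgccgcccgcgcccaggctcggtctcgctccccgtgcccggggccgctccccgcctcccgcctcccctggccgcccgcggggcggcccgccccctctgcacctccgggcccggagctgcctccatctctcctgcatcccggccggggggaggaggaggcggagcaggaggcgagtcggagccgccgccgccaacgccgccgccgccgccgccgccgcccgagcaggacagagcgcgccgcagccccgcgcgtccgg
Steap3, chr1:120265237-120265536, minus strand: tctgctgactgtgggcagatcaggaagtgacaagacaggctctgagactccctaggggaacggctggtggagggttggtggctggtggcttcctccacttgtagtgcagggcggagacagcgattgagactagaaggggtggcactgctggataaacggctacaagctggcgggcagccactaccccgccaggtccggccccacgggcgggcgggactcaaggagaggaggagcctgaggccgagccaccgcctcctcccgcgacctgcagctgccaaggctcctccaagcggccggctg
Steap3, chr1:120270221-120270520, minus strand: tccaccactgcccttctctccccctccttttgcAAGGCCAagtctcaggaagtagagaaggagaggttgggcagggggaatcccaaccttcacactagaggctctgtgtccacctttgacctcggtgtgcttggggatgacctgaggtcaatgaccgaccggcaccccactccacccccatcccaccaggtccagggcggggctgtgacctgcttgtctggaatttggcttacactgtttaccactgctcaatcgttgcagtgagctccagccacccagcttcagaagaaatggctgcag
A match, or its absence, describes the letters of these windows only.

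Losing regions made up 75.9% of the regions of the 10 genes, against 41.5% of all listed regions. This is what the genes were chosen for and is not evidence about them. Of the 34 regions in the authors' accessible class 28 were losing (46.3% of all accessible regions), and of the 24 not accessible ones 16 were losing (36.9% of all such regions). The 3 gaining regions compare with 16.9% of all listed regions. All regions were losing at Thap4 (7), Rin2 (5), Steap3 (4) and Mfge8 (2). At Nol4l 10 of 11 were losing, the highest number of losing regions among the 8001 genes with a region within 50 kb. Of these 8001 genes, 1274 had at least 2 losing regions, 7 had at least 7, and 31 had at least 4 with none kept. Cux1 had 5 of 8, Tacc1, Nfyc and Lin9 had 3 of 5 each, and Pank3 had 2 of 6 (33.3%, below the share of all listed regions). The authors' class rests on the mean of the mz and the inducible ratio, with loss under 0.667. The member region just inside this threshold, inside Nol4l, had a mean ratio of 0.655, and the one just outside, 27.4 kb from Pank3, had 0.736.

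**Figure D1:**
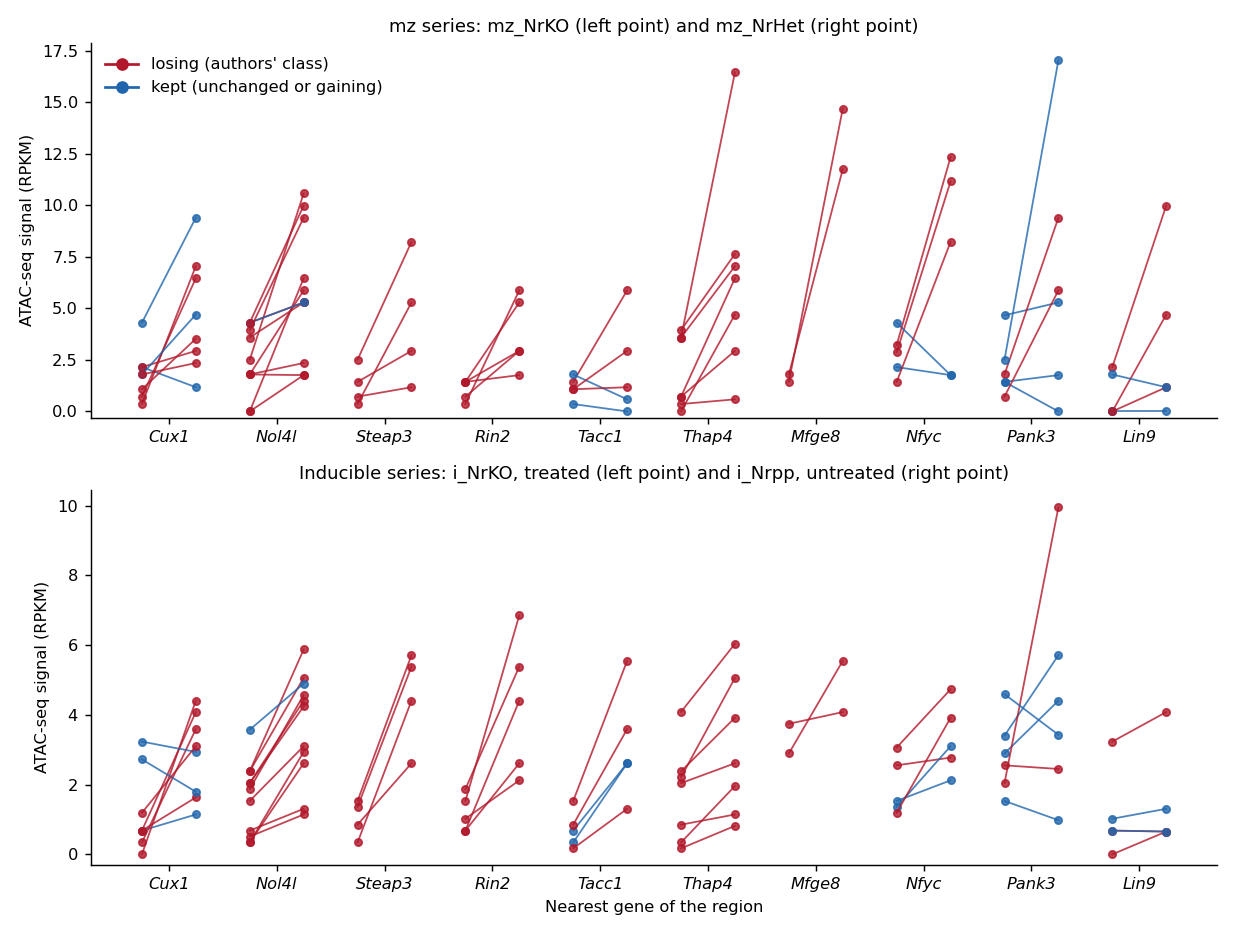
ATAC-seq RPKM (linear axis) of each of the 58 NR5A2-bound regions, by nearest gene, with a line joining the knockout or treated value (left point) to the control value (right point) of the same region. Red lines are the authors' losing regions and blue lines the kept ones. In the mz series the single highest point is a kept region inside Pank3 with 17.0 RPKM in mz_NrHet embryos.

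Summed over the 58 regions, accessibility was 105 RPKM in mz_NrKO and 313 RPKM in mz_NrHet embryos, a ratio of 0.337 (95% interval 0.292 to 0.390). In the inducible series the sums were 91.7 RPKM in the treated and 200.1 RPKM in the untreated pool, a ratio of 0.458 (0.413 to 0.508). Over all listed regions the ratios were 0.668 and 0.694, so the 10 genes stood at 0.505 times the shared level in the mz series and at 0.661 times in the inducible series. Each gene was below the shared level in the mz series, from 0.183 times at Mfge8 to 0.812 times at Tacc1, and 9 of the 10 in the inducible series, where Lin9 stood at 1.10 times.

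Regions were called lower in both series at some genes and in a single series at others, a difference that was not tested. Counted by an exact binomial test on reads, with p-values adjusted after Benjamini and Hochberg across the whole table, Cux1, Nol4l, Steap3, Rin2 and Tacc1 each had 3 regions lower in the treated pool. In mz_NrKO embryos Cux1 and Nol4l had 2 lower regions each, Rin2 had 1, and Steap3 and Tacc1 had none. Thap4 had 3 regions lower in mz_NrKO embryos and none in the treated pool, and Mfge8, Nfyc and Lin9 each had 2 lower in mz_NrKO embryos and none in the treated pool. Pank3 had 2 regions lower in mz_NrKO embryos and 1 in the treated pool. In all, 16 of the 58 regions were called lower in mz_NrKO embryos (1.73% of all listed regions) and 16 in the treated pool (6.37% of all), and 5 were called in both (0.413% of all). Every member has at least 2 mz calls or at least 3 inducible calls, and 14 genes of the table reach one of these counts. The other 4 are Hes1, Pfkfb3, Ptpn3 and Sfi1, so the counts describe how the genes were chosen. Among the genes that reach neither count, 249 had exactly 1 mz call and 61 had exactly 2 inducible calls. After each column pair was rescaled so that the median region had a log2 ratio of 0, which took away shifts of −0.32 in the mz series and −0.35 in the inducible series, 3 member regions were called in the mz series (0.307% of all) and 6 in the inducible series (1.17% of all). Rescaled to equal sums, 2 (0.0826% of all) and 3 (0.46% of all) were called. No member region was called higher, against 0.0236% of all listed regions in the mz series and 0.0767% in the inducible series.

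**Figure D2:**
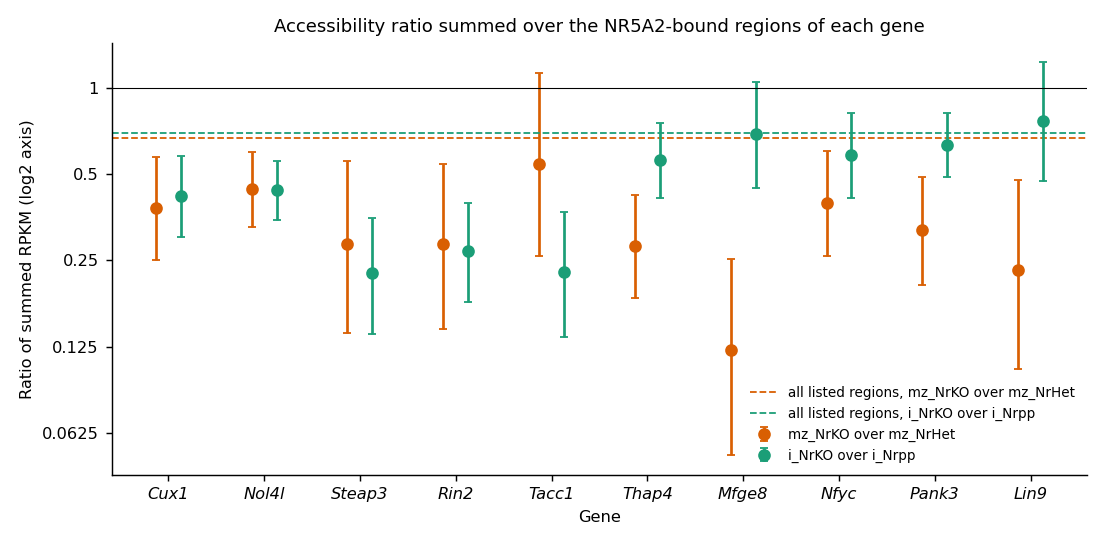
Ratio of RPKM summed over the regions of each gene (log2 axis), in orange for mz_NrKO over mz_NrHet and in green for i_NrKO over i_Nrpp, with exact 95% intervals for counting error and dashed lines at the ratio of all listed regions. Steap3, Rin2 and Tacc1 lie lowest in the inducible series, at 0.225, 0.271 and 0.228, and Mfge8 lies lowest in the mz series, at 0.122.

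Among the regulators of transcription, Cux1 had 2 regions called in both series. Its most accessible losing region lies in the gene body, 14.2 kb inside the 5′ end of the span (chromosome 5, 136553309 to 136553570). It had 0.359 RPKM (1 read) in mz_NrKO and 7.05 RPKM (12 reads) in mz_NrHet embryos, and 0.681 RPKM (4 reads) in the treated and 4.08 RPKM (25 reads) in the untreated pool. The other, 12.9 kb away (136540139 to 136540372) had 0.717 RPKM in mz_NrKO and 6.46 RPKM in mz_NrHet embryos, and 0.340 RPKM in the treated and 3.59 RPKM in the untreated pool. Knockout and treated values were below the control values at both. At a losing region farther inside, 136389063 to 136389273, the treated pool had 0 reads against 4.41 RPKM (27 reads) in the untreated pool. There mz_NrKO embryos had 2.15 RPKM (6 reads) and mz_NrHet embryos 2.94 RPKM (5 reads), a difference that was not called. Zero reads allow up to 0.510 RPKM in the treated pool.

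Of the 3 kept regions of Cux1, 1 lies inside the gene, and a pair 0.530 kb apart lies 34.2 kb and 35.0 kb upstream of the span. The more accessible of the pair (136601501 to 136602002) had 4.30 RPKM in mz_NrKO and 9.40 RPKM in mz_NrHet embryos, and 3.23 RPKM in the treated and 2.94 RPKM in the untreated pool. Its ratios of 0.458 and 1.10 average above the threshold of loss, and neither was called. Summed over all 8 regions, Cux1 had ratios of 0.382 (0.25 to 0.575) for the mz embryos and 0.420 (0.302 to 0.577) for the inducible pools.

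Nol4l had the most regions of the 10 genes, 11, of which 7 lie inside the gene and 4 upstream of it. The most accessible losing region lies 39.2 kb upstream (chromosome 2, 153569392 to 153569568), with 4.30 RPKM in mz_NrKO and 9.99 RPKM in mz_NrHet embryos, and 2.04 RPKM in the treated and 4.24 RPKM in the untreated pool. A losing neighbour 0.174 kb from it had 3.95 RPKM in mz_NrKO and 9.40 RPKM in mz_NrHet embryos, and 2.04 RPKM in the treated and 4.41 RPKM in the untreated pool, and such close neighbours may share reads. The lowest mean ratio of Nol4l was inside the gene at 153500637 to 153500886, with 0 reads in mz_NrKO against 11 in mz_NrHet embryos, and 2 reads in the treated against 18 in the untreated pool. The losing region next to the promoter window printed above (153530880 to 153531352) had 1.79 RPKM in mz_NrKO and 1.76 RPKM in mz_NrHet embryos, and 0.340 RPKM in the treated and 2.61 RPKM in the untreated pool, so its values were lower in the inducible series alone. The 1 kept region of Nol4l, 27.6 kb upstream, had 4.30 RPKM in mz_NrKO and 5.29 RPKM in mz_NrHet embryos, and 3.57 RPKM in the treated and 4.90 RPKM in the untreated pool. The gene's summed ratios were 0.442 (0.327 to 0.597) for the mz embryos and 0.441 (0.347 to 0.557) for the inducible pools.

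At Thap4 each of the 7 regions was losing. In the mz series its summed ratio was 0.282 (0.184 to 0.423) and in the inducible series it was 0.561 (0.414 to 0.754). The leading region lies 7.19 kb inside the 5′ end of the gene (chromosome 1, 93747357 to 93747938). It had 3.59 RPKM in mz_NrKO and 16.4 RPKM in mz_NrHet embryos, and 2.21 RPKM in the treated and 5.06 RPKM in the untreated pool. A region farther inside (93713353 to 93714041) had 0 reads in mz_NrKO and 8 reads in mz_NrHet embryos, and 14 reads in the treated and 24 reads in the untreated pool. All 7 ratios were under 0.667 in the mz series and 4 of the 7 in the inducible series.

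At Nfyc 2 of the 3 losing regions lie upstream and the other 1 inside the gene, where both kept regions lie too. A losing region 0.309 kb upstream of the span (chromosome 4, 120831665 to 120832110) had 3.23 RPKM in mz_NrKO and 12.3 RPKM in mz_NrHet embryos, and 3.06 RPKM in the treated and 4.73 RPKM in the untreated pool. The losing region 2.59 kb upstream had 1.43 RPKM in mz_NrKO and 8.22 RPKM in mz_NrHet embryos, and 1.19 RPKM in the treated and 3.92 RPKM in the untreated pool. Inside the gene, the most accessible kept region (120814245 to 120814478) ran the other way in the mz series, with 4.30 RPKM in mz_NrKO and 1.76 RPKM in mz_NrHet embryos, and had 1.36 RPKM in the treated and 3.10 RPKM in the untreated pool. The mz values rest on 12 reads in mz_NrKO and 3 in mz_NrHet embryos and were not called. Summed ratios of Nfyc were 0.397 (0.258 to 0.604) for the mz embryos and 0.583 (0.414 to 0.813) for the inducible pools.

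Lin9 had 1 accessible region among its 5, 4.12 kb outside the span (chromosome 1, 180636671 to 180637395), and this region was losing. It had 2.15 RPKM in mz_NrKO and 9.99 RPKM in mz_NrHet embryos, and 3.23 RPKM in the treated and 4.08 RPKM in the untreated pool. A losing region 11.6 kb outside the span had 0 reads in mz_NrKO against 8 in mz_NrHet embryos, and 0 reads in the treated against 4 in the untreated pool. The losing region inside the gene (180666322 to 180666605) had 0 reads in mz_NrKO against 2 in mz_NrHet embryos, and 4 reads in each pool. Its inducible ratio was 1.04, so its class of loss came from those few mz reads. At another kept region (180654835 to 180655529) both mz columns had 0 reads, so its mz ratio of 1 holds no information. The more accessible of its 2 kept regions (180683704 to 180684092) had 1.79 RPKM in mz_NrKO and 1.17 RPKM in mz_NrHet embryos, and 0.681 RPKM in the treated and 0.653 RPKM in the untreated pool, values of 2 to 5 reads that cannot show a difference at this depth. Lin9 had summed ratios of 0.232 (0.104 to 0.478) for the mz embryos and 0.765 (0.473 to 1.23) for the inducible pools.

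Among the trafficking and cytoskeleton genes, Rin2 had ratios under 1 at all 5 regions in both series, and under 0.667 at 4 in the mz series and 5 in the inducible series. Its leading region lies 41.2 kb inside the gene (chromosome 2, 145812706 to 145813064), with 1.43 RPKM in mz_NrKO and 5.29 RPKM in mz_NrHet embryos, and 1.53 RPKM in the treated and 6.86 RPKM in the untreated pool. Near the 3′ end, a losing region (145876106 to 145876289) had 1 read in mz_NrKO against 10 in mz_NrHet embryos, and 4 reads in the treated against 27 in the untreated pool, and was called in both series. Rin2 had summed ratios of 0.286 (0.144 to 0.544) for the mz embryos and 0.271 (0.180 to 0.397) for the inducible pools.

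At Tacc1 all 5 regions had inducible ratios under 0.667, and the summed inducible ratio was 0.228 (0.135 to 0.369). In the mz series the sum of 16 reads in mz_NrKO against 18 in mz_NrHet embryos gave a ratio of 0.543 (0.259 to 1.13), which includes 1. Its leading losing region lies inside the gene (chromosome 8, 25173276 to 25173447), with 1.43 RPKM in mz_NrKO and 5.87 RPKM in mz_NrHet embryos, and 1.53 RPKM in the treated and 5.55 RPKM in the untreated pool. Both kept regions of Tacc1 carry the authors' class of gain, although the treated pool was lower at each. The more accessible (25246721 to 25246885) had 1.79 RPKM in mz_NrKO and 0.587 RPKM in mz_NrHet embryos, and 0.340 RPKM in the treated and 2.61 RPKM in the untreated pool. At the other (25136986 to 25137235), 1 read in mz_NrKO against 0 in mz_NrHet embryos, and 4 reads in the treated against 16 in the untreated pool, gave the class of gain.

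Of the genes of metabolism and the cell surface, Steap3 had 4 accessible regions that were all losing and all under 0.667 in both series. Its leading region lies 12.7 kb past the 3′ end of the gene (chromosome 1, 120213509 to 120213876), with 2.51 RPKM in mz_NrKO and 8.22 RPKM in mz_NrHet embryos, and 1.53 RPKM in the treated and 5.71 RPKM in the untreated pool. The region beside the Steap3 promoter window at 120265237 (120266307 to 120266784) had 1.43 RPKM in mz_NrKO and 2.94 RPKM in mz_NrHet embryos, and 0.340 RPKM in the treated and 4.41 RPKM in the untreated pool. Summed ratios of Steap3 were 0.285 (0.140 to 0.554) for the mz embryos and 0.225 (0.139 to 0.353) for the inducible pools.

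Mfge8 had 2 regions, both upstream of the gene at 15.96 kb and 41.6 kb. The farther one (chromosome 7, 79190515 to 79190845) had 1.43 RPKM (4 reads) in mz_NrKO and 14.7 RPKM (25 reads) in mz_NrHet embryos, and 3.74 RPKM (22 reads) in the treated and 4.08 RPKM (25 reads) in the untreated pool. The nearer one (79164741 to 79165301) had 1.79 RPKM in mz_NrKO and 11.7 RPKM in mz_NrHet embryos, and 2.89 RPKM in the treated and 5.55 RPKM in the untreated pool. Mfge8 had the lowest summed mz ratio of the 10 genes, 0.122 (0.0525 to 0.253), beside an inducible ratio of 0.689 (0.448 to 1.05). No test was made of the mz value against the inducible value.

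Pank3 had the most kept regions, 4 of 6. Its leading losing region, 18.6 kb upstream (chromosome 11, 35750704 to 35750988), was called in both series, with 1.79 RPKM in mz_NrKO and 9.40 RPKM in mz_NrHet embryos, and 2.04 RPKM in the treated and 9.96 RPKM in the untreated pool. The most accessible kept region, inside the gene (35773514 to 35773688), had 2.51 RPKM (7 reads) in mz_NrKO and 17.0 RPKM (29 reads) in mz_NrHet embryos, and 4.59 RPKM (27 reads) in the treated and 3.43 RPKM (21 reads) in the untreated pool. The other losing region, 2.18 kb upstream (35766973 to 35767651), had 0.717 RPKM in mz_NrKO and 5.87 RPKM in mz_NrHet embryos, and 2.55 RPKM in the treated and 2.45 RPKM in the untreated pool. The kept region inside the gene was called lower in mz_NrKO embryos and yet counts as unchanged, since its ratios of 0.148 and 1.34 average above the threshold. Pank3 had summed ratios of 0.319 (0.206 to 0.487) for the mz embryos and 0.632 (0.488 to 0.815) for the inducible pools.

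**Figure D3:**
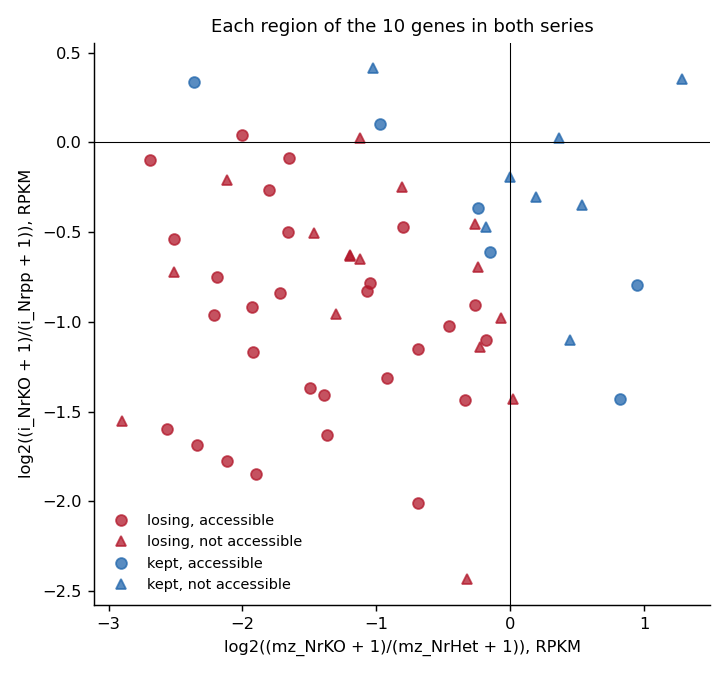
Change of each of the 58 regions in the mz series (horizontal, log2 of mz_NrKO over mz_NrHet, RPKM + 1) and in the inducible series (vertical, log2 of i_NrKO over i_Nrpp, RPKM + 1), with circles for accessible and triangles for not accessible regions. Of the 44 losing regions (red), 41 were under a ratio of 1 in both series, as were 44 of the 58 regions together and 50.5% of all listed regions.

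Losing and kept regions overlapped in each single series. Ratios under 0.667 were found at 39 of the 58 regions in the mz series (49.2% of all listed regions) and at 42 in the inducible series (48.6% of all), and at 28 in both (27.1% of all). Of the 44 losing regions, 28 were under 0.667 in both series, 8 in the mz series alone and 8 in the inducible series alone. Of all 7034 losing regions listed, 4590 were under it in both series, 6175 in the mz series and 5449 in the inducible series. Of the 14 kept regions, 9 were also under 0.667 in a series, 3 in the mz series and 6 in the inducible series, and 5 were at or above it in both. Of all 9924 kept regions listed, 2168 were under it in the mz series and 2792 in the inducible series. Kept regions had fewer reads in the controls, in the 10 genes and over all listed regions. In the 10 genes their median was 3 reads in mz_NrHet embryos and 16 reads in the untreated pool, against 9.5 and 24 reads for losing regions. Over all listed regions the medians were 2 and 13 reads for kept regions, against 5.5 and 17 reads for losing regions. Of the kept regions of the 10 genes, 3 had 0 reads in mz_NrHet embryos. Fewer than 3 reads in mz_NrHet embryos were found at 6 kept and 4 losing regions. Among the losing regions, 5 had 0 reads in mz_NrKO embryos and 2 had 0 reads in the treated pool. The log2 ratios of the 2 series, which share no library, had a Spearman rho of 0.08 over the 58 regions and of 0.21 over all 16958 regions. Genes were chosen by changes in either series, so the rho over the 58 regions cannot measure how far the series match.

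The first measure that did not enter the choice is NR5A2 binding, taken from CUT&RUN, an antibody-directed cleavage assay, in an earlier study. The deposited CUT&RUN RPKM corresponds to whole reads, 5 to 298 per region of the 10 genes with a median of 41, against a median of 36 over all regions. Losing regions of the 10 genes had a median of 5.23 RPKM and kept regions one of 5.16 RPKM. Within each openness class the medians ran the other way. They were 6.13 RPKM for losing and 6.85 RPKM for kept accessible regions. Not accessible regions had 3.64 RPKM and 3.99 RPKM. Mean log2 signal of losing minus kept regions was 0.08 in the accessible and −0.15 in the not accessible class. Over all listed regions the medians were 4.57 RPKM for losing and 3.87 RPKM for kept regions. Within genes, losing regions averaged higher than kept regions of the same gene at 4 of the 6 genes with both classes, and lower at Nol4l (−0.54 on the log2 scale) and Cux1 (−0.23). The largest difference was 0.34 at Nfyc, and the median over the 6 genes was 0.19 (SD over genes 0.35). Other genes with at least 2 regions of each class, 436 in number, had a median difference of 0.18, and 60.1% of them had losing regions higher. The sign of the median depended on the setting, being −0.12 over accessible regions alone, −0.52 over regions inside the gene alone and −0.12 with the inducible ratio alone as class.

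The most strongly bound region of a gene was a losing one at 9 of the 10 genes. At 4 of the 10 no region was kept, so the outcome was fixed there. Among the 6 genes with both classes it was a losing one at 5, and 26 of their 40 regions were losing. The 436 other genes, each with at least 2 regions of each class, had a losing region strongest at 56.7%, and 47.6% of their regions were losing. Nol4l has 1 kept region and would not meet that minimum. The strongest signals were 18.5 RPKM (95% interval 16.4 to 20.7) at the nearer Mfge8 region, 17.6 RPKM (15.6 to 19.8) inside Nol4l at 153495358 to 153495918, and 15.9 RPKM (12.7 to 19.8) and 15.2 RPKM (13.4 to 17.2) at neighbouring regions of Thap4. The lowest of these 4 stood at the 98.8th percentile of all listed regions, a level that is not free of the choice of genes. The Nol4l region had 2.51 RPKM in mz_NrKO and 10.6 RPKM in mz_NrHet embryos, and 2.38 RPKM in the treated and 5.06 RPKM in the untreated pool. Pank3 was the exception, since its strongest region was the kept one inside the gene, with 12.5 RPKM (9.61 to 16) against 9.51 RPKM (7.52 to 11.9) at its leading losing region. Weakly bound regions were among the losing ones too. The leading losing region of Tacc1 had 1.01 RPKM (0.328 to 2.36), from 5 CUT&RUN reads, below all but 0.902% of the listed regions, and that of Rin2 had 2.13 RPKM (1.33 to 3.22).

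**Figure D4:**
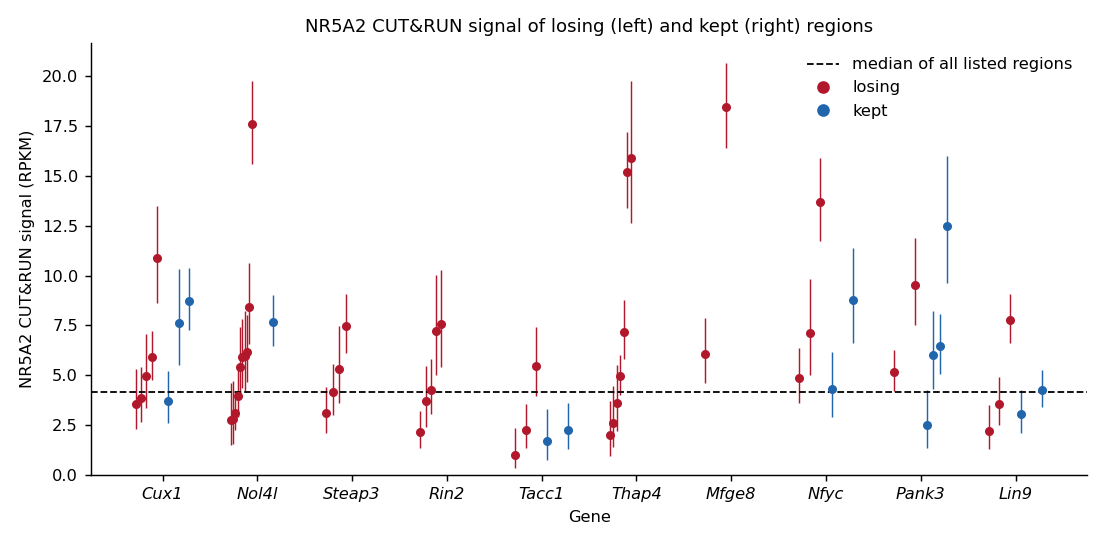
NR5A2 CUT&RUN signal in RPKM (axis from 0) of each region, by gene, with losing regions left in red and kept regions right in blue, exact 95% intervals for counting error, and a dashed line at the median of all listed regions, 4.15 RPKM. Losing regions range between 1.01 and 18.5 RPKM and kept regions between 1.68 and 12.5 RPKM, and Pank3 is the gene of the 6 with both classes whose highest point is a kept region.

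CUT&RUN signal was also set beside accessibility in the controls. Across the 58 regions, Spearman's rho between CUT&RUN signal and RPKM was 0.55 in mz_NrHet embryos and 0.45 in the untreated pool. Between CUT&RUN signal and the log2 ratio, rho was −0.28 in the mz series and 0.11 in the inducible series, against −0.16 and −0.21 over all listed regions. The regions share the same merged columns and a gene's regions share a locus, so these are descriptions.

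Position along the gene was compared next. Inside the gene span lay 26 of 44 losing regions (59.1%) and 7 of 14 kept regions (50%). The order depended on openness. Among accessible regions 13 of 28 losing (46.4%) and 3 of 6 kept ones lay inside. Among the not accessible ones it was 13 of 16 losing and 4 of 8 kept. Regions of a gene share a locus, so no interval is given and the difference was not tested. Among the other regions within 50 kb of a single nearest gene, the shares were 56.5% of losing and 55.2% of kept regions, and over all listed regions, distant ones included, 51.5% and 50.6%. For the 8 genes with a listed strand, 11 losing and 6 kept regions lay upstream of the span and 3 losing and 0 kept regions downstream, at Steap3 and Thap4. Only 2 of the 58 regions, losing ones at Nol4l and Nfyc, had their midpoint within 1 kb of a gene end (3.45%, against 6.45% of all listed regions). The nearest of the 48 regions with a listed start site for their gene lay 1.15 kb from it. Listed start sites do not mark the 5′ end of every span. The losing region 0.309 kb upstream of the Nfyc span lay 6.15 kb from the nearest listed site. The median distance to the nearer gene end was 17.2 kb for losing and 21.5 kb for kept regions.

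**Figure D5:**
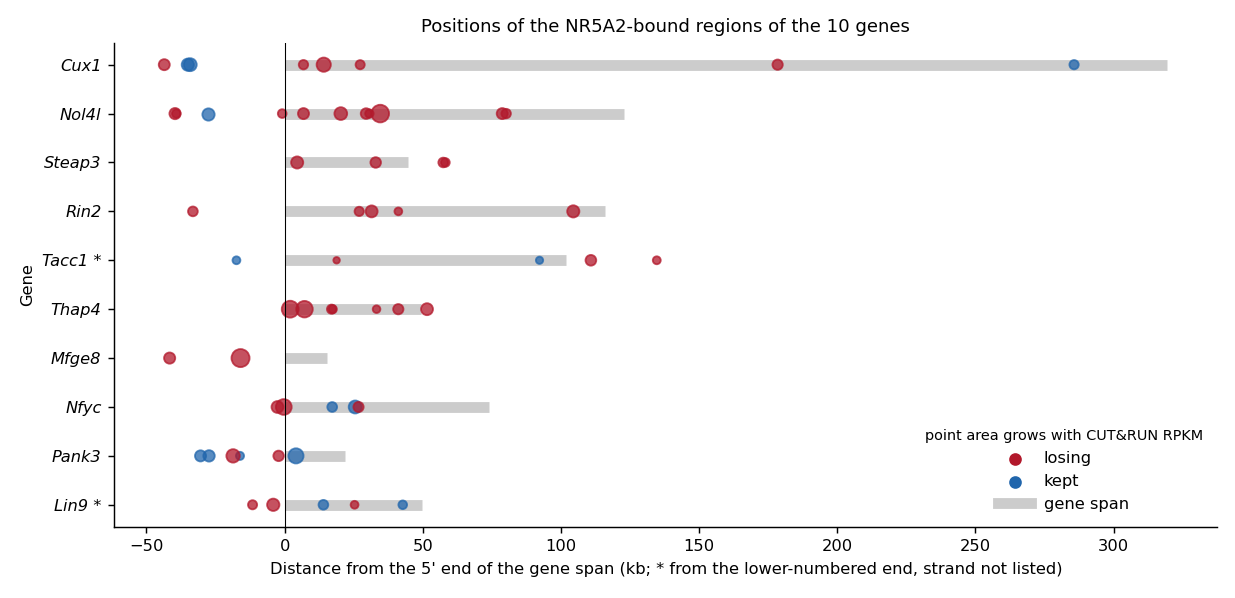
Positions of the 58 regions along the 10 genes in kb from the 5′ end of each gene span (grey bar), for Tacc1 and Lin9 from the lower-numbered end, with losing regions in red, kept regions in blue and point area growing with CUT&RUN signal. The 2 kept regions upstream of Cux1 sit between losing regions inside the gene and 1 losing region farther out.

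Few regions lay close together. Of 48 gaps between successive regions of a gene, 6 were under 1 kb, and 5 of these 6 pairs had the same class. The exception was a pair inside Nfyc 0.921 kb apart, where the losing region (120804652 to 120805017) had 2.87 RPKM in mz_NrKO and 11.2 RPKM in mz_NrHet embryos and its kept neighbour had 2.15 RPKM in mz_NrKO and 1.76 RPKM in mz_NrHet embryos. Their CUT&RUN signals ran the other way, 4.84 RPKM at the losing and 8.77 RPKM at the kept region. The other 5 pairs lay at Nol4l (2 pairs), Cux1, Steap3 and Thap4.

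The deposited table also gives each CUT&RUN summit recentred on an Nr5a2 motif. The recentred position differed from the original summit at 38 of 44 losing regions (86.4%) and 14 of 14 kept regions. Over all listed regions it differed at 91.9% of losing and 87.5% of kept regions, so the order of the classes was the reverse of that in the 10 genes, a difference that was not tested. Where a promoter window covered such a summit anywhere in the table, AAGGTCA or AAGGCCA lay within 15 bases of it at 63 of 115 moved and 3 of 113 unmoved summits. The 6 losing regions with an unmoved summit were 2 at Rin2, 2 at Nfyc, 1 at Tacc1 and 1 at Nol4l, and they include the leading losing regions of Rin2, Tacc1 and Nol4l.

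Relatives and partners of the 10 gene products were counted as well, from a list of family members and complex subunits. Of 44 such genes, all found in the gene table, 22 had a region within 50 kb. Of their 43 regions, 18 were losing (41.9%, against 41.5% of all listed regions), 1 was called lower in mz_NrKO embryos and 1 in the treated pool. These lie at Rin1, whose single region had 6.81 RPKM in mz_NrKO and 21.1 RPKM in mz_NrHet embryos, and at Aurka, both named after their values were seen. NF-Y partners Nfya and Nfyb, Nol4 and the other Steap genes had no region. Among 12 genes of the MuvB, DREAM and E2F group, 7 had a region, and 5 of 15 regions were losing. Tfdp2, which encodes an E2F dimer partner, had 2 losing regions of 2, the more accessible with 1.43 RPKM in mz_NrKO and 2.94 RPKM in mz_NrHet embryos, and 1.53 RPKM in the treated and 2.94 RPKM in the untreated pool. Satb1, which encodes another CUT-domain protein, had 4 losing regions of 6, the leading one with 4.66 RPKM in mz_NrKO and 9.99 RPKM in mz_NrHet embryos, and 3.57 RPKM in the treated and 5.88 RPKM in the untreated pool. None of the regions of Satb1 or Tfdp2 was called in either series.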

How the data were processed

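ATAC-seq reads of 23 libraries (13 mz_NrKO and 8 mz_NrHet embryos, 1 i_NrKO and 1 i_Nrpp pool) had been processed with cutadapt, Bowtie2 and MACS2 on mm10, per the submitters' processing notes, with versions not given in the sources used here. The deposited table lists, for regions bound by NR5A2 in an earlier CUT&RUN study, RPKM per group as the authors computed it, the authors' ratio for each series, classes and summit positions, per the file headers. The merging of embryos and the treatment of duplicates are not described in these sources. The authors' classes were recovered for 100% of regions from the mean of both ratios, each (knockout + 0.01)/(control + 0.01), with loss under 0.667 and gain over 1.5.

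Whole reads were recovered from the RPKM steps of the deposited columns (0.359 per read in mz_NrKO, 0.587 in mz_NrHet, 0.170 in i_NrKO and 0.163 in i_Nrpp, 100% of values whole within 0.001). Deposited CUT&RUN RPKM gave whole reads within 0.02 after multiplication by region length. For each region, an exact binomial test (two-sided) set knockout against control reads, allowing for the steps. Its p-values were adjusted across the 16958 regions by the Benjamini-Hochberg method, with a threshold of 0.05. Intervals are exact at 95%, a count of 0 allows up to 3 reads, and all cover counting error only. PCR reads are not independent molecules. Tests over embryos, planned in case of values per embryo, were not run because the columns are merged. Calculations used Python 3.11.15, numpy 2.4.6, pandas 2.3.3 and scipy 1.17.1, and were tested on simulated data. Region assignment used RefSeq spans (GRCm38.p6). All 10 genes are named, with the losing and the kept region of highest mean RPKM of each in full, and relatives are named with 2 or more losing regions. Further regions were picked after their values were seen. Genes and lists were chosen with earlier results of these data known. Alternatives changed the distance limit, class rule, scaling, pseudocount and read minimum.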

Additional observations from a re-analysis of the deposited data

Results flagged for a closer look

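At 5 regions the 2 series lay on opposite sides of the thresholds of loss and gain, a difference that was not tested. At Cux1 the kept region 136281716 to 136282032 had an mz ratio of 1.82 and an inducible ratio of 0.599, from 6 reads in mz_NrKO and 2 in mz_NrHet embryos, and 4 in the treated and 7 in the untreated pool. The kept Cux1 region 136602532 to 136602722 ran the other way, with 0.383 in the mz series and 1.51 in the inducible series. Both gaining regions of Tacc1 had high mz ratios beside low inducible ones. These were 36.9 and 0.263 at 25136986 to 25137235, where mz_NrHet embryos had 0 reads, and 3.02 and 0.134 at 25246721 to 25246885, where they had 1. The kept Nfyc region 120814245 to 120814478 had 2.43 in the mz series and 0.441 in the inducible series.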

How the results depend on the processing

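No paired analysis was possible because each deposited column merges all embryos of a group, so neither the replicate block nor leaving out embryos was run. Restricted to regions inside the gene span, 26 losing regions were left, the inducible ratio was 0.392, and the median CUT&RUN difference of losing over kept regions turned to −0.52 on the log2 scale. With accessible regions alone, 28 were losing, 46.4% of them inside the gene, and the CUT&RUN difference was −0.12. With the inducible ratio alone as class that difference was also −0.12. Fewer regions entered the first 2 settings, and for the last the cause was not tested. Columns scaled to a ratio of sums of 1 left 29 losing regions of the 10 genes, and 20.4% of all listed regions. A distance limit of 10 kb gave a share of 78.8% of losing regions inside the gene, since distant regions drop out. Leaving out each gene in turn gave 0.310 to 0.357 for the mz ratio, 0.431 to 0.482 for the inducible ratio and 0.13 to 0.25 for the CUT&RUN difference. Over all listed regions, 7034 were losing, against 4671 with a pseudocount of 1 RPKM, 4620 with columns scaled to a median log2 ratio of 0, 3452 with a ratio of sums of 1 and 3970 at a mean ratio of 0.5 or less. Counting close neighbours once and CUT&RUN reads without division by length were settings chosen after seeing the data. Median depth of 4 reads in mz_NrKO embryos leaves most single regions undecided.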
